A study of Sus scrofa with 8 samples.

Results

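ATF4 and 7 genes of the endoplasmic reticulum (ER) stress response were followed in the livers of 2 pig breeds. The genes are the transcription factors ATF4, XBP1 and DDIT3, the chaperones HSPA5, HSP90B1 and CALR, and the protein disulfide isomerases PDIA3 and PDIA4. They were taken by name: every probe set that the array annotation assigns to one of these symbols and to no other was kept, which gave 14 of the 23999 probe sets that are not controls, for 8 of 6765 genes with a symbol. All 14 lay above the filter on dim probe sets. Liver RNA came from 4 Korean native pigs (KNP), an indigenous breed, at 7 months of age, and from 4 Yorkshire pigs (YS), a commercial breed, at 6 months, with 1 Affymetrix porcine array per animal. Per the labels, housing was shared by the breeds and the tip of the largest liver lobe was sampled. No animal is described as treated or genetically altered. The comparison asks which liver genes differ between the breeds, and breed cannot be told apart from age. Each array reads whole tissue, in which fewer cells of a type and less RNA per cell cannot be told apart.

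The ER folds and glycosylates proteins that are to be secreted, a heavy load in hepatocytes, which make most plasma proteins. When unfolded proteins pile up in it, sensors in its membrane slow translation in general, favour translation of ATF4, splice the XBP1 message and release the factor ATF6, and these factors raise the genes of chaperones, folding enzymes and degradation. ATF4 also serves other stresses, among them shortage of amino acids, and drives genes of amino acid synthesis and transfer RNA charging, while prolonged signalling raises DDIT3, known as CHOP, which is linked to cell death. The deposited values hold one intensity per probe set and give neither splice forms of XBP1 nor protein.

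The arrays of the breeds differed in several technical measures. Median intensities lay between 152 and 179 on all arrays, but the controls spiked in at hybridization averaged 3544 ± 615 in KNP and 6050 ± 1099 in YS (geometric mean per array, SD, n = 4 per breed). The 3' to 5' actin ratio, which is higher in shortened RNA, was 2.68 to 6.45 in KNP and 8.39 to 11.8 in YS, without overlap. Bright probe sets were lower in KNP in general: the median log2 difference was −0.22 at a mean log2 intensity of 13 to 14 and −0.07 at 12 to 13, and it was −0.06 and −0.04 once the arrays had been brought to one distribution by quantile normalization. The 8 hepatocyte markers summed to 284462 to 333504 in KNP and 450554 to 479550 in YS. Of these, 6 fell on the deposited scale and 0 did after quantile normalization. That step gives equal ranks equal values on every array, so differences among the brightest probe sets shrink by construction. The 0 therefore cannot show whether these markers differed. The macrophage markers (5 of 8 on the array, of which 4 were tested) summed to 13489 to 18774 in KNP and 7865 to 16869 in YS. JCHAIN, the 1 tested marker of plasma and B cells, averaged 2818 ± 662 in KNP and 1634 ± 744 in YS. The part of these differences in the results was not tested.

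In the brighter ATF4 probe set every KNP liver lay below every YS liver, and in 2 of the 3 PDIA3 probe sets every KNP liver lay above, while the breeds overlapped in the chaperones HSPA5, HSP90B1 and CALR. None of the 14 probe sets passed limma's moderated test at an adjusted p under 0.05 over the 14399 probe sets tested, of which 0.424% were called higher and 0.611% lower. Those 61 higher and 88 lower calls became 9 and 4 after quantile normalization, 10 and 4 after cyclic loess and 57 and 38 after median centring. The balance of directions thus changed with the scaling. On the deposited scale it also changed, to 24 and 11 without the filter and 8 and 5 without the intensity trend. With array weights more calls were still lower (74 and 106). At an unadjusted p under 0.05, 3 of the 14 were higher (2 of PDIA3 and 1 of PDIA4), where the share of all probe sets was 7.07%, and 1 of ATF4 was lower, where it was 8.06%. No overlap between the breeds with KNP higher was seen in 2 of the 14 (4.01% of all) and with KNP lower in 1 (5.67% of all). The median difference of the 14 was 0.09 on the log2 scale, against −0.01 over all probe sets. It was −0.14 without KNP replicate 3, the highest array in 10 of the 14. Probe sets of 1 gene share their transcript, so these counts are not counts of independent features.

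**Figure D1:**
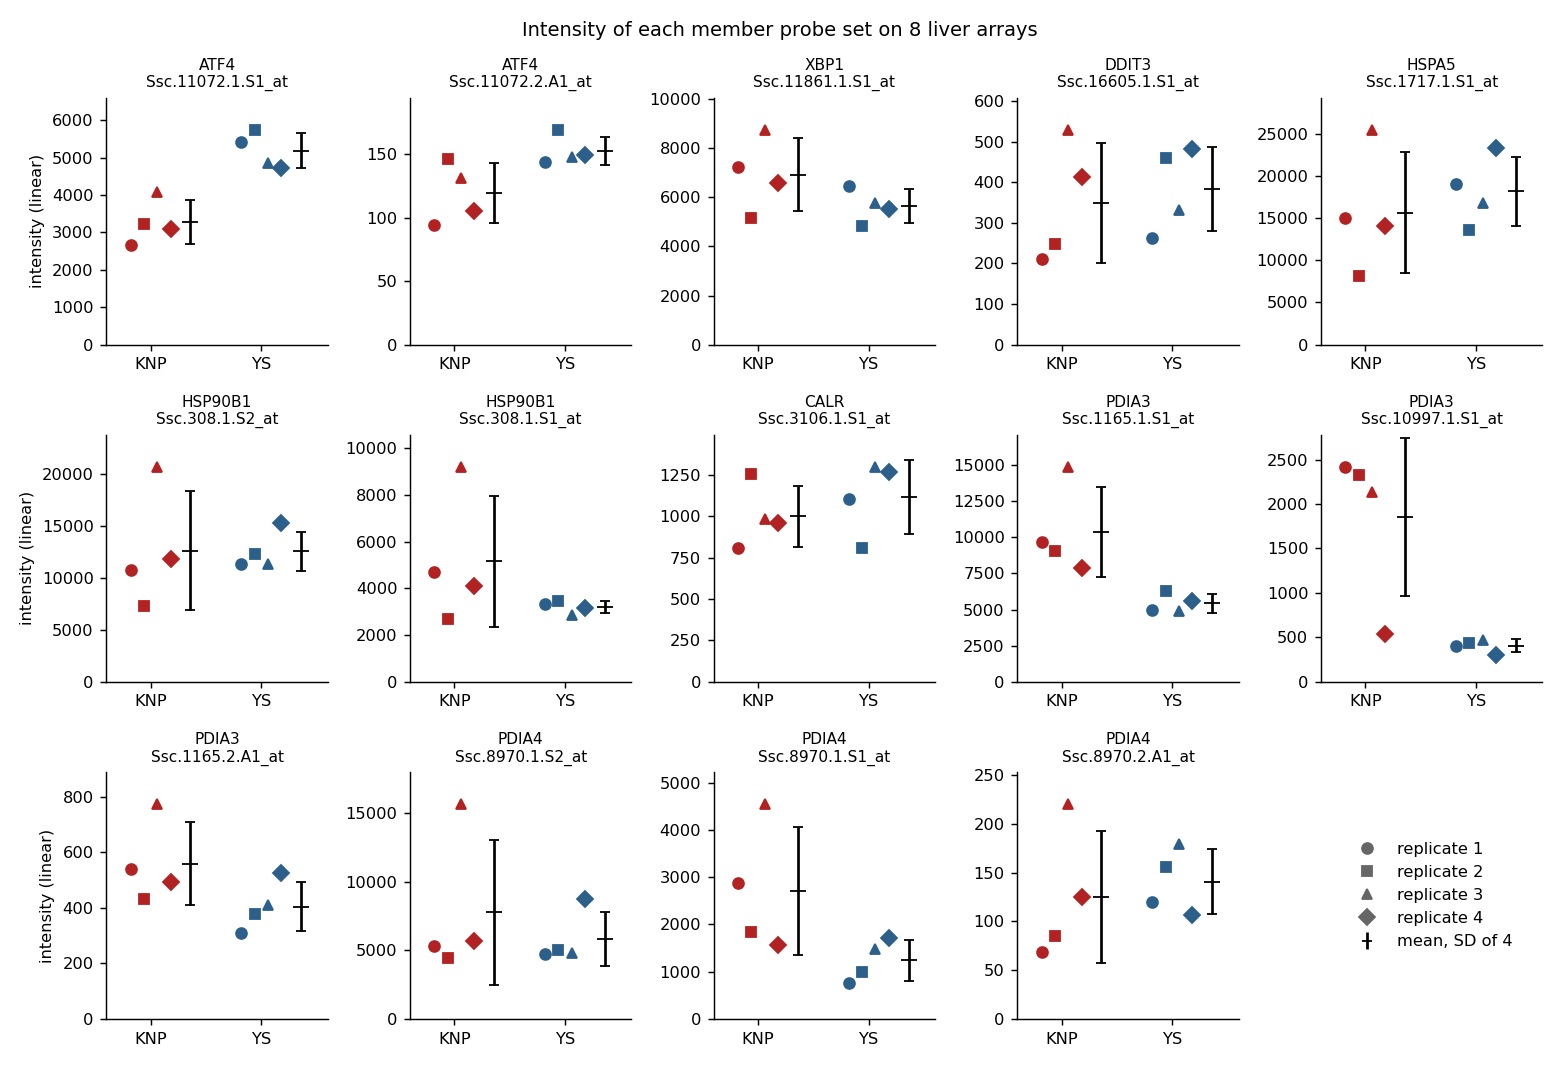
Linear intensity of each of the 14 probe sets, brightest first within a gene, on the 8 arrays, with a linear axis from 0 in each panel, KNP in red on the left and YS in blue on the right, a marker shape per replicate number (numbers do not pair animals) and the mean with SD of 4 in black. The brighter ATF4 probe set is lower in all 4 KNP animals and 2 PDIA3 probe sets are higher in all 4, and KNP replicate 3 (triangle) is the highest array in 10 of the 14 panels.

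ATF4 (Entrez gene ID 100144302) encodes the factor through which several stress kinases act on transcription. Its brighter probe set gave intensities of 2674, 3229, 4073 and 3101 in the KNP animals and of 5422, 5737, 4864 and 4729 in the YS animals. Every KNP value lay below every YS value. The means were 3269 ± 586 in KNP and 5188 ± 473 in YS (SD, n = 4 per breed), a log2 difference of −0.68 (SE 0.16, 95% interval −1.02 to −0.33), or 0.626 of the YS level. Its adjusted p of 0.0751 missed the threshold. The difference was −0.65 after quantile normalization, and probe sets of like brightness had a median of −0.07. Without KNP replicate 3, the KNP animal with the most ATF4, the difference was −0.79 and the probe set was called (limma, adjusted p = 0.0472); without the others it was not.

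The other ATF4 probe set was dim, with 94.4, 146, 131 and 105 in KNP and 144, 169, 148 and 149 in YS. The breeds overlapped here by 1 KNP animal, replicate 2. Its difference was −0.33 on the log2 scale (SE 0.23, 95% interval −0.83 to 0.17, adjusted p = 0.533). Both probe sets thus had a lower mean in KNP, and over the 8 arrays they correlated at a Pearson r of 0.84 (Spearman rho 0.79), given as a description of probes for one transcript.

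XBP1 (ID 100217386), whose spliced form drives chaperone, secretion and degradation genes, gave 7220, 5149, 8740 and 6573 in KNP and 6475, 4843, 5763 and 5516 in YS. The breeds overlapped, with KNP replicate 2 next to the lowest YS animal. KNP minus YS was 0.27 on the log2 scale (SE 0.17, 95% interval −0.11 to 0.66, adjusted p = 0.495), so that the interval holds both no change and a level 1.58 times that of YS. It was 0.15 without KNP replicate 3 and 0.41 without KNP replicate 2. DDIT3 (ID 100240743), the factor CHOP, gave 211, 247, 528 and 413 in KNP and 261, 459, 332 and 481 in YS. Its spread within each breed was wide, with 2 low and 2 high animals in both. The log2 difference was −0.18 (SE 0.30, 95% interval −0.84 to 0.48, adjusted p = 0.824), and it was 0.02 without KNP replicate 1 and −0.40 without KNP replicate 3.

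HSPA5 (ID 407060), or BiP, is the Hsp70 chaperone of the ER lumen and holds the stress sensors in their resting state. It gave 14960, 8156, 25403 and 14057 in KNP and 18966, 13518, 16818 and 23250 in YS. The highest and the lowest of the 8 animals were both KNP. The means were 15644 ± 7172 in KNP and 18138 ± 4079 in YS (SD, n = 4 per breed), with a log2 difference of −0.30 (SE 0.29, 95% interval −0.94 to 0.34, adjusted p = 0.670). It was −0.57 without KNP replicate 3 (limma, adjusted p = 0.299), −0.03 without KNP replicate 2 and −0.17 without YS replicate 4. With all animals it was −0.04 after quantile normalization, and probe sets of like brightness had a median of −0.22 on the deposited scale.

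HSP90B1 (ID 397191), or GRP94, is the Hsp90 chaperone of the ER. Its brighter probe set had 10734, 7283, 20670 and 11854 in KNP and 11309, 12315, 11300 and 15290 in YS. The KNP animals again lay at both ends. The log2 difference was −0.08 (SE 0.26, 95% interval −0.66 to 0.49, adjusted p = 0.914), and it turned to 0.09 after quantile normalization. It was 0.15 without KNP replicate 2 and −0.35 without KNP replicate 3. The dimmer probe set gave 4705, 2688, 9186 and 4089 in KNP and 3322, 3448, 2847 and 3173 in YS. Here 3 KNP animals lay above all YS animals and replicate 2 below them. On the log2 scale it showed 0.55 (SE 0.30, 95% interval −0.11 to 1.20, adjusted p = 0.419), and 0.22 without KNP replicate 3.

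CALR (ID 100381266), calreticulin, binds calcium and, as a lectin, glycoproteins that are still folding. It gave 809, 1254, 987 and 958 in KNP and 1103, 809, 1298 and 1270 in YS. The ranges were nearly the same, and the lowest animals of the breeds differed by less than 1 intensity unit. The mean log2 level in KNP minus that in YS was −0.15 (SE 0.20, 95% interval −0.59 to 0.28, adjusted p = 0.764), and it ran from −0.30 without YS replicate 2 to −0.06 without KNP replicate 1.

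PDIA3 (ID 100156204), or ERp57, forms and rearranges disulfide bonds in glycoproteins held by calnexin and calreticulin, and also sits in the complex that loads peptides on class I histocompatibility molecules. Its brightest probe set gave 9705, 9057, 14856 and 7867 in KNP and 4964, 6300, 4878 and 5590 in YS. All KNP animals lay above all YS animals. The means were 10371 ± 3085 in KNP and 5433 ± 660 in YS (SD, n = 4 per breed), a log2 difference of 0.90 (SE 0.19, 95% interval 0.47 to 1.32), or 1.86-fold, with an adjusted p of 0.0590. It was 0.98 after quantile normalization, and probe sets of like brightness had a median of −0.07. Leaving out each animal in turn gave 0.71 to 1.01, and the probe set was called without KNP replicate 4 (limma, adjusted p = 0.0486).

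The second PDIA3 probe set had the largest difference of the 14. It gave 2414, 2330, 2133 and 536 in KNP and 401, 441, 474 and 306 in YS. All KNP values lay above all YS values, but KNP replicate 4 lay near the YS animals and apart from the other 3 of its breed. The log2 difference was 1.95 (SE 0.41, 95% interval 1.04 to 2.87), or 3.87-fold, with an adjusted p of 0.0558. Without KNP replicate 4 it was 2.47 (limma, adjusted p = 0.00200). The third probe set gave 539, 433, 773 and 493 in KNP and 308, 378, 409 and 524 in YS, where 1 YS animal reached into the KNP range. Its log2 difference was 0.44 (SE 0.22, 95% interval −0.04 to 0.93, adjusted p = 0.373), and 0.28 without KNP replicate 3. The 3 probe sets thus had a higher mean in KNP, with sizes that differed: the split of the second one inside KNP, with replicate 4 low, was not seen in the brightest, where replicate 4 was 7867 beside 9057 in replicate 2.

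PDIA4 (ID 100522203), or ERp72, is a larger disulfide isomerase with several active sites. Its brightest probe set gave 5344, 4419, 15663 and 5677 in KNP and 4716, 5024, 4847 and 8755 in YS. The KNP mean of 7776 ± 5285 rested on replicate 3, and the YS mean was 5836 ± 1950 (SD, n = 4 per breed). The log2 difference of 0.27 (SE 0.36, 95% interval −0.52 to 1.05, adjusted p = 0.771) turned to −0.14 without that animal. The second probe set gave 2874, 1832, 4541 and 1560 in KNP and 766, 997, 1470 and 1723 in YS. Only KNP replicate 4 reached into the YS range. Its log2 difference was 1.06 (SE 0.34, 95% interval 0.30 to 1.81, adjusted p = 0.175), and 0.77 without KNP replicate 3. The third, dim probe set gave 69.0, 85.2, 220 and 125 in KNP and 120, 156, 180 and 107 in YS, with a log2 difference of −0.24 (SE 0.34, 95% interval −0.99 to 0.50, adjusted p = 0.778), which ran from −0.53 without KNP replicate 3 to −0.04 without KNP replicate 1. The PDIA4 differences thus had both signs, and the brightest and the dimmest correlated at a Pearson r of 0.50 over the 8 arrays (Spearman rho 0.31), the second and the dimmest at 0.07 (Spearman rho −0.17) and the brightest and the second at 0.70 (Spearman rho 0.50).

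**Figure D2:**
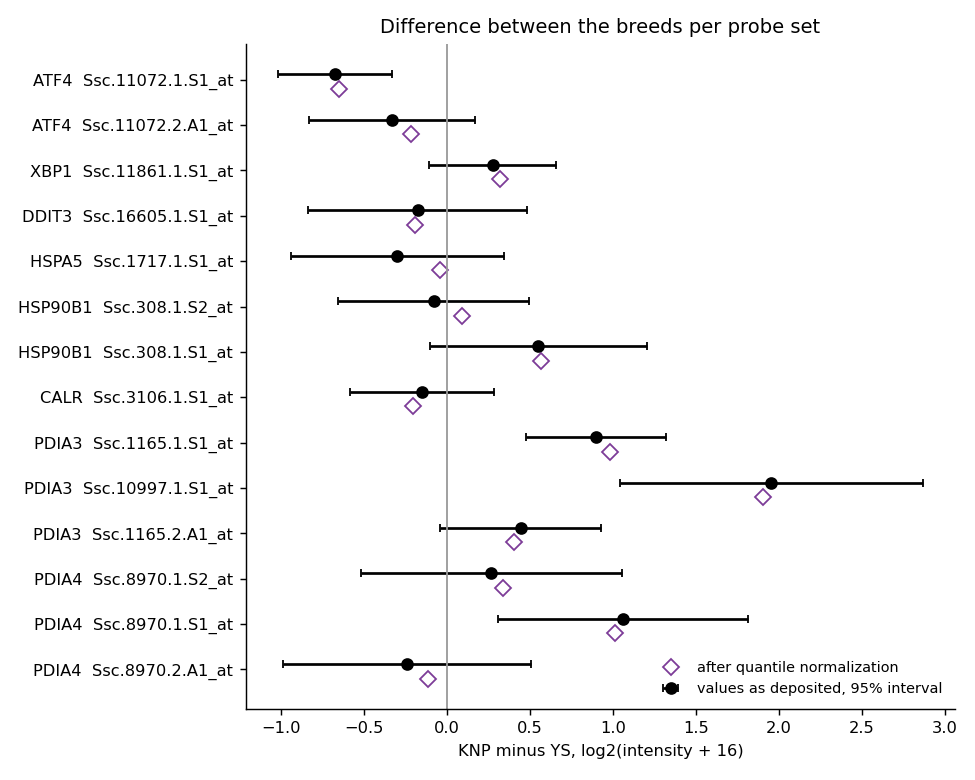
Log2 difference of KNP minus YS for each probe set from the fit across all 14399 probe sets, with its 95% interval (black, values as deposited), and the difference after quantile normalization (open diamonds). The intervals of 1 ATF4, 2 PDIA3 and 1 PDIA4 probe sets lie on one side of 0, and quantile normalization turns the sign of the brighter HSP90B1 probe set alone.

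**Figure D3:**
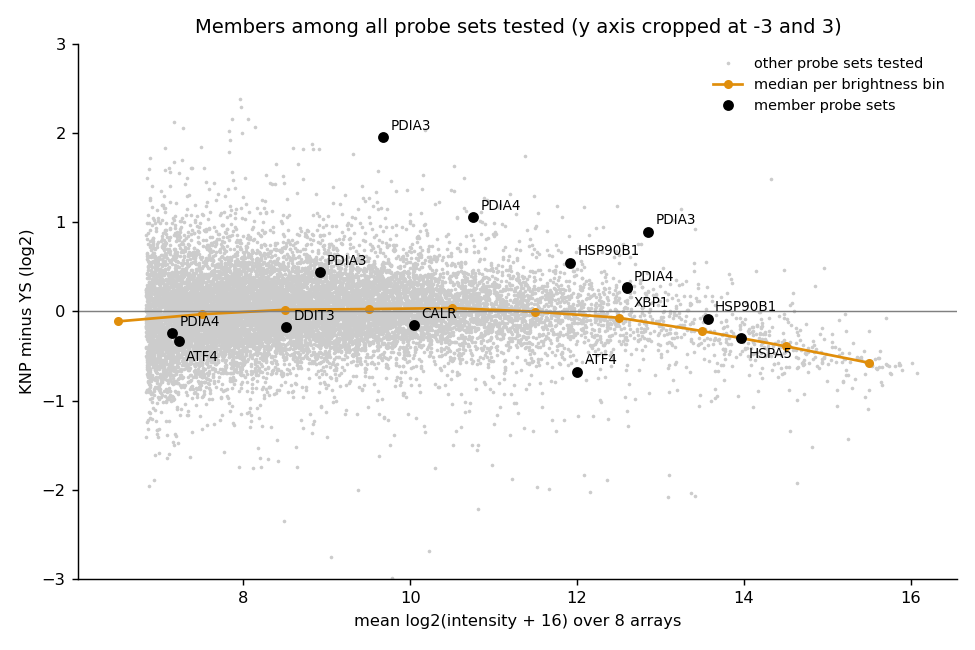
Log2 difference of KNP minus YS against the mean log2 intensity over 8 arrays, for all probe sets tested (grey), the members (black) and the median in bins 1 log2 unit wide (orange, bins of over 20 probe sets). The ATF4 probe set near 12 lies below the median of its bin and the PDIA3 probe sets lie above theirs, while HSPA5 lies at −0.30 beside a bin median of −0.22.

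One KNP animal was high in most of these genes. KNP replicate 3 was the highest of the 8 arrays in 10 of the 14 probe sets, where over all probe sets tested it was the highest in 13.9%. It was highest in the probe sets of XBP1, DDIT3 and HSPA5, in both of HSP90B1, in 2 of PDIA3 and in all 3 of PDIA4. By the brightest probe sets, and against the median of the other 7 arrays, it stood at 3.12-fold in PDIA4, 2.36-fold in PDIA3, 1.83-fold in HSP90B1, 1.70-fold in HSPA5, 1.59-fold in DDIT3 and 1.52-fold in XBP1. ATF4 and CALR stood at 0.861 and 0.895. For ATF4 the other 7 arrays include the higher YS values, and among the 4 KNP animals replicate 3 was the highest in the brighter ATF4 probe set and in 11 of the 14 in all. For PDIA3 the other 7 arrays include the lower YS values: beside 14856 in replicate 3, the other KNP animals had 9705, 9057 and 7867. Other animals were also far from the rest: in HSPA5 KNP replicate 2 deviated by −0.97 from the mean of 8 arrays on the log2 scale, against 0.66 in replicate 3, and KNP replicate 2 was the lowest of its breed in 6 of the 14 probe sets. Over all probe sets tested the median of this ratio was 0.988. The count of 10 of 14 was the same after quantile normalization. KNP replicate 3 lay inside or at the edge of its breed in the array measures, with an actin ratio of 6.45 (the highest of KNP, 2.68 to 6.45) and spiked controls of 3712 (KNP 2747 to 4230).

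**Figure D4:**
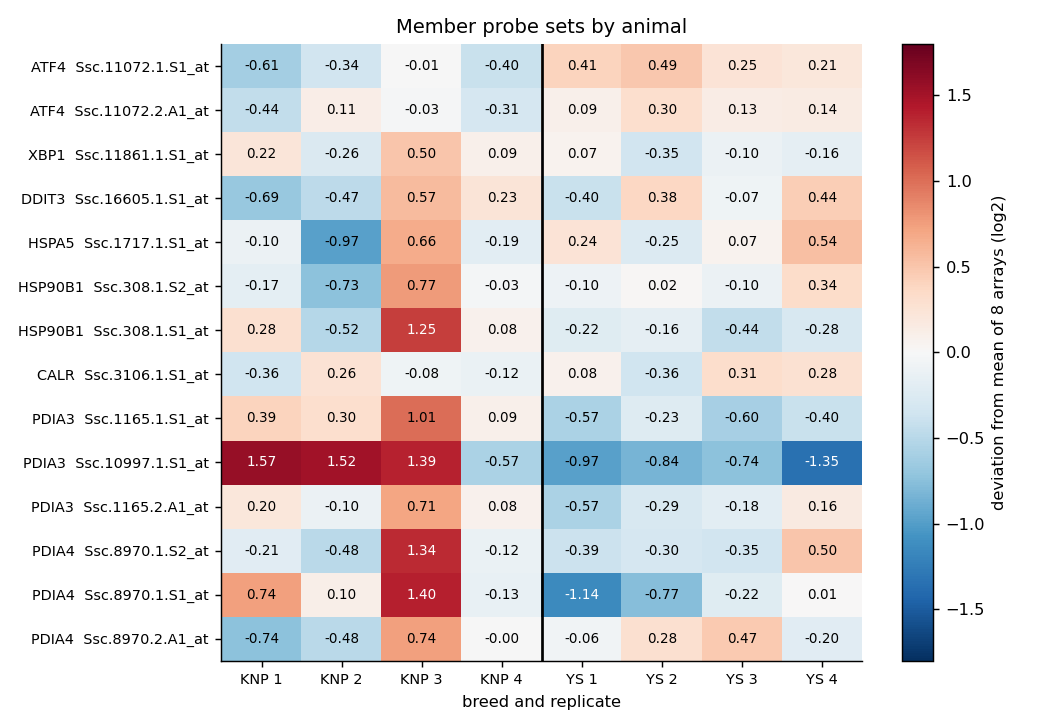
Deviation of each probe set from its mean over the 8 arrays (log2), with 1 column per animal, KNP left of the line and YS right of it, red above and blue below the mean. KNP replicate 3 is red in the rows of XBP1, DDIT3, HSPA5, HSP90B1, PDIA3 and PDIA4 and near 0 in the brighter ATF4 row, while that ATF4 row is at or below 0 in all KNP columns and above 0 in all YS columns.

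Other lists of ER genes held many that were highest in the same animal. Of 27 further ER chaperones and folding enzymes tested, 19 were highest in KNP replicate 3, of 35 genes of the translocon, signal peptidase and glycosylation 26, and of 15 genes of ER-associated degradation 8. Of 11 genes of the ER calcium store it was 3, with a median of 1.24-fold over the other 7 arrays. The following genes were named after their values were seen. SDF2L1, a partner of HSPA5, had an intensity of 4322 in this animal and 360 to 830 in the other 7, and CRELD2, a secreted ER stress gene, 2812 against 431 to 905. HYOU1, a large relative of Hsp70 that exchanges nucleotide on HSPA5, had 3445 against 632 to 1230, and the cochaperone DNAJB11 2060 against 455 to 818. SELENOS, a selenoprotein of the degradation machinery, had 3928 against 1236 to 2319, and OSTC, a subunit of the oligosaccharyltransferase, 8338 against 2399 to 4256.

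In the lists of sensors and of ATF4 targets 8.33% and 4.35% of the genes were highest in this animal, beside 13.9% of all probe sets tested. Each of these shares rests on 1 gene. The sensors ERN1, EIF2AK3 and ATF6 were not among the genes tested. Of 12 genes of the list of stress sensors and their control KNP replicate 3 was the highest array in 1, and of 23 targets and partners of ATF4 and DDIT3 in 1, VEGFA (0 after quantile normalization). The 3 enzymes of serine synthesis, also named after their values were seen, were at their lowest in this animal: PSPH at 27.6 against 81.2 to 1188 in the other 7, PHGDH at 432 against 869 to 5663, and PSAT1 at 10788 against 13255 to 25606. Among cell type markers it was the highest array in 1 of 4 of macrophages, 3 of 5 of endothelium, 1 of 2 of neutrophils and 0 of 8 of hepatocytes. The macrophage receptor CD163 was at 5603 against 1286 to 2919, while C1QA, C1QC and CD14 stood at 1.08, 1.24 and 0.767 times the median of the others. The endothelial genes RAMP2, LYVE1, CDH5, VWF and PECAM1 stood at 2.10, 1.66, 1.20, 1.13 and 0.766 times it. RAMP2 was at 1183 in this animal beside 1174 in KNP replicate 2, and was called higher in KNP (limma, adjusted p = 0.0190). Of the neutrophil genes S100A9 stood at 3.73 times the median of the others and S100A8 at 1.04 times. ACTA2 of contractile cells lay below all others, at 917 against 1891 to 4672. The other stellate and fibroblast markers COL1A2, COL3A1, DCN and PDGFRB stood at 0.965, 0.866, 0.368 and 0.835 times the median of the others. JCHAIN, the joining chain of plasma cells, which are rich in ER, was at 3234 in this animal and at 918 to 3300 in the others. The part of such cells in the profile was not tested.

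Correlations between the members were computed for 28 pairs of genes by their brightest probe sets over the 8 animals. ATF4 and PDIA3 separate the breeds, and a breed holds too few animals for a correlation of its own, so no pooled r is given for their pairs, although the adjustment covers all 28. With the breed means taken out, and as a description without a test, r was 0.70 between ATF4 and PDIA3, 0.73 between HSP90B1 and PDIA3 and 0.79 between PDIA3 and PDIA4. These were the highest of the pairs with ATF4 or PDIA3, and they include KNP replicate 3. The lowest were −0.28 between CALR and PDIA3 and −0.10 between ATF4 and CALR. The rest ran from 0.26 (ATF4 and HSPA5) to 0.57 (ATF4 and DDIT3). HSP90B1 and PDIA4 varied together, with a Pearson r of 0.89 (exact permutation p = 0.00139, adjusted p = 0.0389 over 28 pairs, n = 8) and a Spearman rho of 0.79 (exact permutation p = 0.0279, adjusted p = 0.391). Without the animals farthest from the median of HSP90B1, KNP replicates 2 and 3, r was 0.90, and without KNP replicate 3 alone it was 0.76. HSPA5 and HSP90B1 had an r of 0.90 (exact permutation p = 0.00451, adjusted p = 0.0632) and a rho of 0.62 (exact permutation p = 0.115, adjusted p = 0.501), and r was 0.63 without KNP replicates 2 and 3, farthest from the median of HSPA5. DDIT3 and HSP90B1 had an r of 0.77 (exact permutation p = 0.0113, adjusted p = 0.106) and a rho of 0.95 (exact permutation p = 0.00114, adjusted p = 0.0319), and r was 0.74 without KNP replicates 1 and 2. CALR had an r of 0.03 to HSPA5 (exact permutation p = 0.944, adjusted p = 0.988), −0.17 to HSP90B1 (exact permutation p = 0.698, adjusted p = 0.931) and −0.03 to PDIA4 (exact permutation p = 0.957, adjusted p = 0.988). These values rest on few animals: without KNP replicates 2 and 3 r was 0.78 to HSPA5 and 0.41 to HSP90B1, and without KNP replicate 1 and YS replicate 2 it was −0.41 to PDIA4.

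Among 7187 other probe sets with 1 symbol, those nearest to the ATF4 profile over the 8 arrays were GON7 (Pearson r 0.98), RAN, a small GTPase of nuclear transport (0.96), RPS23, a ribosomal protein (0.96), and MAPK6, an atypical MAP kinase (0.95). All had no overlap between the breeds and were lower in KNP, as the profile they were matched to. RPS23 and MAPK6 were called (log2 −0.58 and −0.81, adjusted p = 0.0390 and 0.0422). RPS23 was bright, with means of 23008 in KNP and 34359 in YS. Probe sets of like brightness (log2 14 to 15) had a median of −0.39, and of −0.04 after quantile normalization. For MAPK6 (log2 11 to 12) that median was −0.003 on the deposited scale. Nearest to HSPA5, among 7188, were dim probe sets of PRDX4, a peroxiredoxin of the ER (0.94), and of CANX, the membrane lectin chaperone calnexin (0.94). APEX2 (0.94) and SLC35F6 (0.94) were as near. The PRDX4 probe set averaged 271 in KNP and 314 in YS, where the brightest of that gene averaged 7933 and 7923.

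Of 123 other genes of the pathway tested, each counted by its brightest probe set, 1 was called, which is 0.813%; over all probe sets tested 0.424% were called higher and 0.611% lower. Of 11 genes of the ER calcium store ATP2A2, the calcium pump, rose by 1.74 (SE 0.21, adjusted p = 0.0102), with 5943, 4862, 4051 and 4655 in KNP and 1181, 1289, 2213 and 1256 in YS. Its 3 other probe sets ran from −0.06 to 0.19. The other 10 genes did not pass; RCN1, a calcium-binding protein of the ER lumen, showed 0.68 (adjusted p = 0.339) and its relative RCN2 −0.21 (adjusted p = 0.601).

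Of the 23 tested targets and partners of ATF4 and DDIT3, 0 passed limma's test over all probe sets (at an unadjusted p under 0.05, 1 higher and 4 lower, where 7.07% and 8.06% of all probe sets were). A positive difference was seen in 8 and a negative one in 15, while 48.9% of all probe sets had a positive one. The median was −0.23, against −0.01 over all probe sets, and it was −0.09 without KNP replicate 3. YS replicate 2 was the highest of the 8 arrays in 10 of the 23 genes (43.5%), and in 9.30% of all probe sets tested. PSPH had 86.8, 1188, 27.6 and 81.2 in KNP and 205, 309, 469 and 508 in YS, with overlap. Its log2 difference was −1.28 (SE 0.81, adjusted p = 0.494), and −0.68 without KNP replicate 3 (limma, adjusted p = 0.720). It was called without KNP replicate 2, the KNP animal with the most PSPH (log2 −2.28, limma, adjusted p = 0.0367). PSAT1, the aminotransferase of serine synthesis, had 18130, 13255, 10788 and 17801 in KNP and 25052, 25606, 25147 and 23046 in YS. It did not overlap, but missed the threshold (log2 −0.75, SE 0.17, adjusted p = 0.0678), and was −0.43 after quantile normalization. GARS and MARS, which charge transfer RNA with glycine and methionine, showed −0.51 and −0.57 (adjusted p = 0.221 and 0.244), and 2 further probe sets of GARS −0.11 and 0.02.

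The list of sensors and their control holds 26 genes, of which 12 had a probe set annotated with their symbol alone. The sensors ERN1, EIF2AK3 and ATF6 were not among these 12. Of the 12 genes 0 passed (at an unadjusted p under 0.05, 0 higher and 2 lower), 10 had a lower mean log2 level in KNP, and the median was −0.19. KNP replicate 2 was the lowest of the 8 arrays in 8 of the 12. No share over all probe sets is given for that count. CREB3L2, a membrane-bound relative of ATF6, had 392, 336, 376 and 392 in KNP and 462, 594, 557 and 556 in YS, without overlap (log2 −0.51, SE 0.16, adjusted p = 0.150). EIF2B3, a subunit of the exchange factor that the stress kinases block, showed −0.45 (adjusted p = 0.289) and TMBIM6, an ER membrane protein that limits cell death, −0.25 (adjusted p = 0.339), which turned to 0.12 after quantile normalization. The 3 other probe sets of TMBIM6 ran from −0.35 to 0.38.

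Of the 27 other chaperones and folding enzymes 0 passed (0 at an unadjusted p under 0.05), with a median of 0.07 and 15 positive and 12 negative differences. Without KNP replicate 3, 7 were positive and 20 negative, with a median of −0.26, against −0.01 over all probe sets. This animal was singled out for its high values in these lists. Leaving it out therefore lowers the differences of the genes in which it was highest by construction. The same holds for the lists of degradation and of translocon genes. TXNDC12, a thioredoxin of the ER, showed 0.33 (adjusted p = 0.399), FKBP9, a prolyl isomerase, −0.30 (adjusted p = 0.388) and SDF2 −0.38 (adjusted p = 0.358). Of 15 genes of ER-associated degradation 0 passed (at an unadjusted p under 0.05, 2 higher and 0 lower), with a median of 0.01, and of −0.09 without KNP replicate 3, where 4 were positive and 11 negative, against 8 and 7 with it. HERPUD2 and AUP1 did not overlap and showed 0.41 and 0.39 (adjusted p = 0.310 for both), while FAF2 showed −0.31 (adjusted p = 0.488). The 2 other probe sets of FAF2 showed 0.08 and 0.20. AUP1 was highest in KNP replicate 3 and showed 0.25 without it. Of 35 genes of the translocon, signal peptidase and glycosylation 0 passed (at an unadjusted p under 0.05, 2 higher and 0 lower), with a median of 0.05 and 21 positive and 14 negative differences. Without KNP replicate 3 the median was −0.08, with 13 positive and 22 negative. SPCS1, of the signal peptidase, and LMAN2, a cargo lectin, showed 0.43 and 0.45 (adjusted p = 0.320 and 0.325), and 0.24 and 0.25 without KNP replicate 3. STT3B, a catalytic subunit of the oligosaccharyltransferase, showed −0.42 (adjusted p = 0.335).

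**Figure D5:**
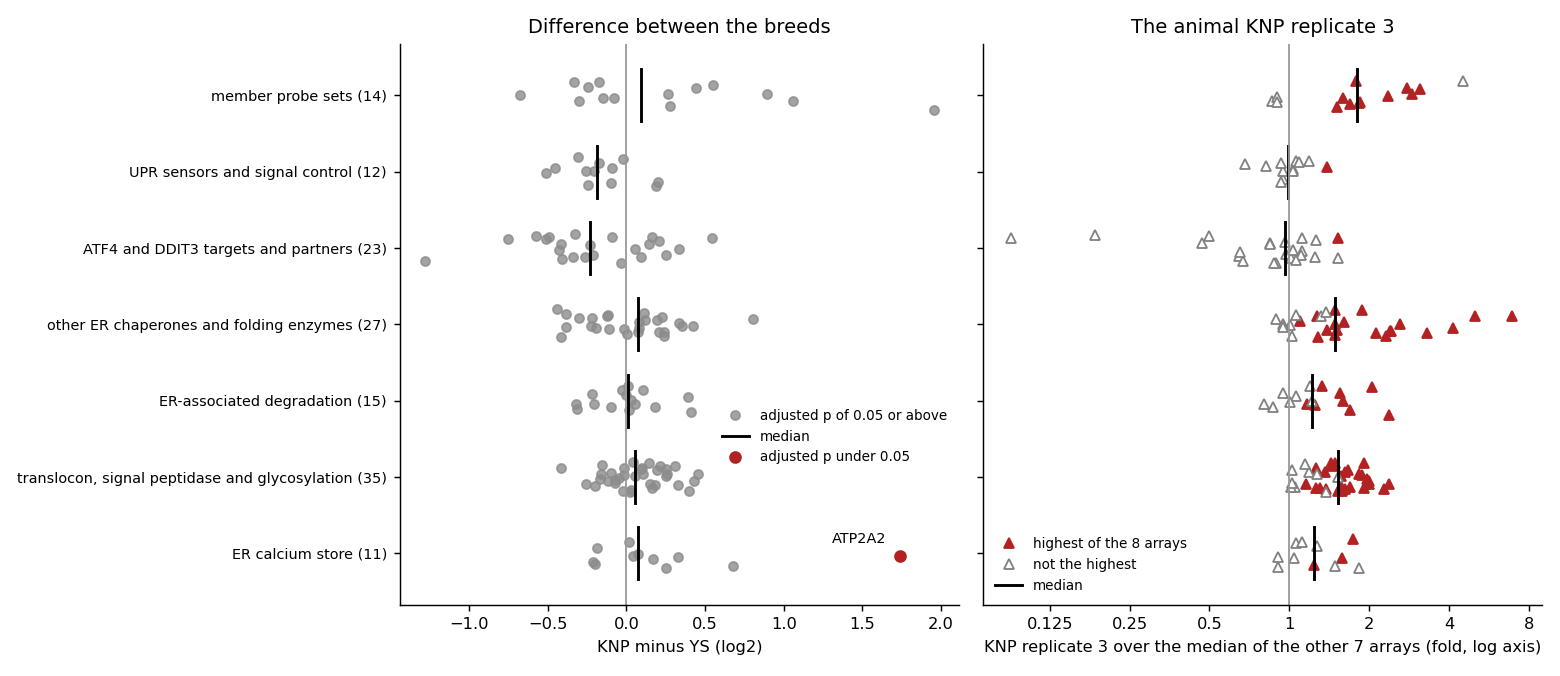
Left, log2 difference of KNP minus YS of the member probe sets and of the genes of 6 other lists (brightest probe set of each gene, number tested in brackets), with the one gene past an adjusted p of 0.05 in red and list medians as bars. Right, the level in KNP replicate 3 over the median of the other 7 arrays (log axis), filled where it was the highest array: this holds for 10 of 14 members, 19 of 27 chaperones and 26 of 35 translocon and glycosylation genes, and for 1 of 23 ATF4 and DDIT3 targets and partners. Over all probe sets tested this array was the highest in 13.9%.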

How the data were processed

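The authors deposited 1 linear intensity for each probe set and array. Per the submitters' processing notes GCOS 1.3 was used; how signal and background were computed is not stated there. The mean of the values between percentiles 2 and 98 was 500.1 on each array, so the deposited intensities carry a scaling per array. No detection calls were used. Of 24123 probe sets 124 controls were set aside. The values were taken as log2(intensity + 16), without further scaling since array medians differed by 0.22, and the lower 40% by mean over 8 arrays were left out, which left 14399. KNP was compared with YS with limma 3.58.1 (R 4.3.3; lmFit and eBayes with an intensity trend, breed as the only term, two-sided, Benjamini-Hochberg adjustment over all 14399). With 4 arrays per breed, array number limits the precision. Correlations had two-sided exact permutation tests. Symbols come from the array annotation, and all 8 members had the same symbol in the pig gene table.

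The members, lists and rules were chosen with earlier results of these data known. Named were all member probe sets, from each other list the members past the threshold or the 3 with the smallest p, and the 4 nearest profiles to ATF4 and to HSPA5. A gene of a list was counted by its brightest probe set. Alternatives were quantile normalization, median centring, cyclic loess, leaving out each animal, a replicate block, array weights, dropping the filter or the trend, leaving out the lower 60%, pseudocounts of 1 and 64, a threshold of 0.01 and a minimum change of 1.5-fold. No sequence is shown; promoter and protein sequences were not used here.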

Additional observations from a re-analysis of the deposited data

Results flagged for a closer look

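Of 28 groups of 4 animals (14 probe sets in 2 breeds), 2 held an animal far from the other 3 for the range of its group, where chance gives about 1 in 20 groups. In the second PDIA3 probe set by brightness KNP replicate 4 had an intensity of 536, against 2133 to 2414 in the other KNP animals. In the brightest PDIA4 probe set YS replicate 4 had 8755, against 4716 to 5024 in the other YS animals; this animal was also the highest of YS in HSPA5 and in the brighter HSP90B1 probe set.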

How the results depend on the processing

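The 149 probe sets called over all became 13 after quantile normalization, 14 with cyclic loess, 95 with median centring, 35 without the filter, 13 without the intensity trend, 8 with the replicate block, 5 at a threshold of 0.01 and 0 with a minimum change of 1.5-fold, and 8 to 119 with 1 animal left out. Of the 14 member probe sets 0 were called under these settings, except that leaving out 1 animal gave 0 to 2, array weights 2 (the brightest of PDIA3, adjusted p = 0.0368, and the second, 0.0308) and the lower 60% left out 1 (the second of PDIA3, adjusted p = 0.0487, where 12 of the 14 were tested). The brighter ATF4 probe set stayed between −0.79 and −0.59 over all settings (adjusted p 0.0472 to 0.187). Of 250 values of single probe sets under alternatives 238 kept their direction and their side of the threshold, 6 passed it and 6 changed direction. The brighter HSP90B1 probe set turned to 0.0892 with quantile normalization and 0.14 with cyclic loess, and ran from −0.35 to 0.15 with 1 animal left out; DDIT3 ran from −0.40 to 0.023 and the brightest PDIA4 probe set from −0.14 to 0.48 there. The pairs of members with a Pearson r past an adjusted p of 0.05 went from 1 to 2 after quantile normalization (HSPA5 with PDIA4 added). By Spearman rho, DDIT3 with HSP90B1 passed on the deposited scale and missed after quantile normalization (exact permutation tests, adjusted p = 0.0319 and 0.0639). The causes were not tested. Equal replicate numbers stand for different animals, and deviations of same-numbered animals correlated between −0.02 and 0.05, so the block rests on a number alone. Without detection calls, how far dim probe sets lie above background is unknown.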
